A study of Mus musculus with 48 samples.

Results

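Liver RNA levels of 38 genes of endoplasmic reticulum (ER) stress and the integrated stress response were described across 5 groups of mice. The genes were taken by name from a list of 16 ER chaperones and folding factors, 5 stress sensors and transcription factors, 9 genes of ER-associated degradation and protein translocation, and 8 targets of the transcription factor ATF4. All 38 were found among the 17097 genes that had a probe set of their own on the array, and for each the probe set that was brightest on average over all arrays was taken. All 38 lay above the median probe set, and 21 of them had more than 1 probe set.

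The mice were 24 F1 C57BL6J/FVB animals of 11 weeks of age, each with 1 array. Ercc1Δ/- mice carry 1 truncated and 1 null allele of Ercc1 in all cells and are a progeroid model with a DNA repair defect. They received AIN93G control diet ad libitum (Control, n = 5), that diet with 14 ppm microencapsulated rapamycin (eRapa), also ad libitum (Rapa 14 ppm, n = 4), or 30% dietary restriction (DR 30%, n = 5). Wild-type (WT) F1 littermates formed an ad libitum group (WT-Control, n = 5) and a restricted group (WT-DR, n = 5). Restriction began at 7 weeks of age with 10% less food and reached 30% from 9 weeks, and the food was given just before the dark period. The age at which the rapamycin diet of the array mice began and the hour of tissue collection were not given in the sources used here.

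Proteins that enter the secretory pathway fold in the ER with the help of chaperones such as BiP, and the liver, which secretes most plasma proteins, depends heavily on them. When unfolded proteins accumulate, the membrane sensors IRE1, PERK and ATF6 start the unfolded protein response. IRE1 splices the mRNA of XBP1, and spliced XBP1 and cleaved ATF6 raise chaperones and degradation genes, while PERK phosphorylates eIF2α, which slows translation in general and favours that of ATF4. Other kinases phosphorylate eIF2α on amino acid shortage, viral RNA or heme lack, so ATF4 targets can also move without the ER chaperones, and both sets were kept apart here. Arrays of this kind do not separate spliced from unspliced Xbp1 mRNA and do not measure eIF2α phosphorylation.

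Some promoters of these genes carry DNA elements through which the sensors act, and a few are shown, most of them from genes that were called in a comparison, and that of Atf3, which was not called, because it holds the same letters as that of Chac1. The ER stress element (ERSE) was searched as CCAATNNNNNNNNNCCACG, the shorter ERSE-II as ATTGGNCCACG and the C/EBP-ATF element bound by ATF4 (CARE) as TGATGNAA, on both strands, from 250 bases before to 50 bases after the start site of transcription in RefSeq windows of the build GRCm38.p6. The ERSE was in 39 of 32851 windows (0.119%) and in 9 of the 34 members that have a window in the table. These were Hspa5, Hsp90b1, Pdia6, Dnajc3, Creld2, Calr, Canx, Syvn1 and Derl3. ERSE-II was in 12 windows (0.0365%), 2 of them those of Dnajb11 and Herpud1. CARE, a shorter and more frequent string, was in 1304 windows (3.97%), among them those of Herpud1, Atf3, Trib3, Asns and Chac1. In all, 15 of the 34 members held at least 1 of these elements. Hyou1, Manf, Derl1 and Atf6 are not in the table. The stretches that follow are given 5′ to 3′ on the strand of the gene, with the element in capitals. They are Hspa5 (chr2:34772000-34772068, plus strand), Pdia6 (chr12:17266466-17266534, plus), Creld2 (chr15:88819495-88819563, plus), Syvn1 (chr19:6046507-6046575, plus) and Derl3 (chr10:75893217-75893285, plus) for the ERSE, Herpud1 (chr8:94386352-94386412, plus) for ERSE-II, and Chac1 (chr2:119351024-119351081, plus) and Atf3 (chr1:191183411-191183468, minus) for CARE. All lie upstream of the start site.
Hspa5: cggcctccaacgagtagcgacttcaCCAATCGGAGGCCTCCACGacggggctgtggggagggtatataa
Pdia6: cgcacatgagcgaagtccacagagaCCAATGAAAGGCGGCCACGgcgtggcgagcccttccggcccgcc
Creld2: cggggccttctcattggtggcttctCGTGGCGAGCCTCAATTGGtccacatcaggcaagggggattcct
Syvn1: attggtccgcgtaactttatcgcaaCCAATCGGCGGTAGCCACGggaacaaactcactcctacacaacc
Derl3: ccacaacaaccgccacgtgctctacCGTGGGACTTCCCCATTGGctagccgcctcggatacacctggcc
Herpud1: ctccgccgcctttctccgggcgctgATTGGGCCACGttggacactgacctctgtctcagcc
Chac1: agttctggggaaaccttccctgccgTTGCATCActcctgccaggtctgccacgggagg
Atf3: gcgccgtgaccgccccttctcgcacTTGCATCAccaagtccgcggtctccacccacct
In Hspa5 the element ran from position -65 to -47 relative to the start site, in Pdia6 from -98 to -80 and in Syvn1 from -44 to -26, each in the orientation searched. In Creld2 (-126 to -108) and Derl3 (-156 to -138) it stood on the opposite strand, so the printed capitals begin with CGTGG and end with ATTGG. The ERSE-II of Herpud1 lay at -52 to -42. The CARE of Chac1 (-193 to -186) and that of Atf3 (-110 to -103) were also on the opposite strand and held the same 8 letters, TTGCATCA. A match of letters does not show that a factor binds there.

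The labelled genotype and tissue were checked first. On the log2 scale, Ercc1 averaged 6.68 ± 0.11 (SD) in WT-Control mice, 6.29 ± 0.18 in WT-DR mice, 5.37 ± 0.10 in Control mice, 5.12 ± 0.12 in Rapa 14 ppm mice and 4.96 ± 0.21 in DR 30% mice. The mean of 6 hepatocyte markers was 13.1 to 13.4 in every mouse, far above the array medians of 4.16 to 4.21. It was lower in Control (13.15 to 13.21) than in WT-Control (13.28 to 13.43), without overlap. Among these markers Tat was called lower in Control than in WT-Control (-0.91). Markers of plasma and B cells, which are rich in ER chaperones, averaged 3.41 to 3.69 (4 of 7 genes measured, 1 above the median probe set), with Jchain between 3.40 and 3.89 in the group means. Of 7 measured markers of the exocrine pancreas, Cela1 was at 8.44 to 10.4 in the group means and the other 6 at 3.11 to 5.53. Cela1 was itself called lower in both restricted groups (-1.19 in Ercc1Δ/- and -2.00 in WT mice), and its part in the results was not tested. The mean of 45 spike-in probe sets averaged 7.55 ± 0.03 (SD) in the rapamycin group. It averaged 7.68 in Control and 7.62 in DR 30%, and 7.69 in WT-Control and 7.59 in WT-DR. The rapamycin mice (7.50 to 7.58) overlapped with the WT-DR mice (7.51 to 7.66). The part of this level in the results was not tested. In the labels of the values used, the arrays of all groups but Rapa 14 ppm are marked as re-analysed, so this mark and rapamycin cannot be told apart. In bulk liver, fewer cells of a type and less RNA per cell cannot be told apart either.

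In each genotype 7 of the 38 members were called lower in restricted mice than in mice fed ad libitum, and 1 of them, Ern1, was called in both. A gene was called at a Benjamini-Hochberg FDR under 0.05 over all probe sets of the array and a fold change of at least 1.5, from limma. In Ercc1Δ/- mice, 7 members were lower and 1 was higher in DR 30% than in Control, where 0.948% of all probe sets were called lower and 1.49% higher. In WT mice, 7 members were lower in WT-DR than in WT-Control and 0 were higher (2 at any fold), where 2.63% of probe sets were called lower and 3.41% higher. Among the 22570 probe sets above the median, where all members lie, 1.78% were called lower in DR 30% vs Control and 5.03% in WT-DR vs WT-Control. Without WT-Control mouse 401, 402 or 404, the 7 calls in WT mice became 2, 3 and 3, and without WT-DR mouse 421 they became 4. The median log2 difference over the 38 members was -0.28 in Ercc1Δ/- and -0.18 in WT mice, against -0.01 over all probe sets in both comparisons, and 30 and 27 members had a value below 0. At any fold, 13 members were lower with an FDR under 0.05 in DR 30% vs Control (3.7% of all probe sets) and 11 in WT-DR vs WT-Control (9.36%, or 15.1% of those above the median). The members and lists were chosen with earlier results of these data known, so these counts carry no test of their own.

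**Figure D1:**
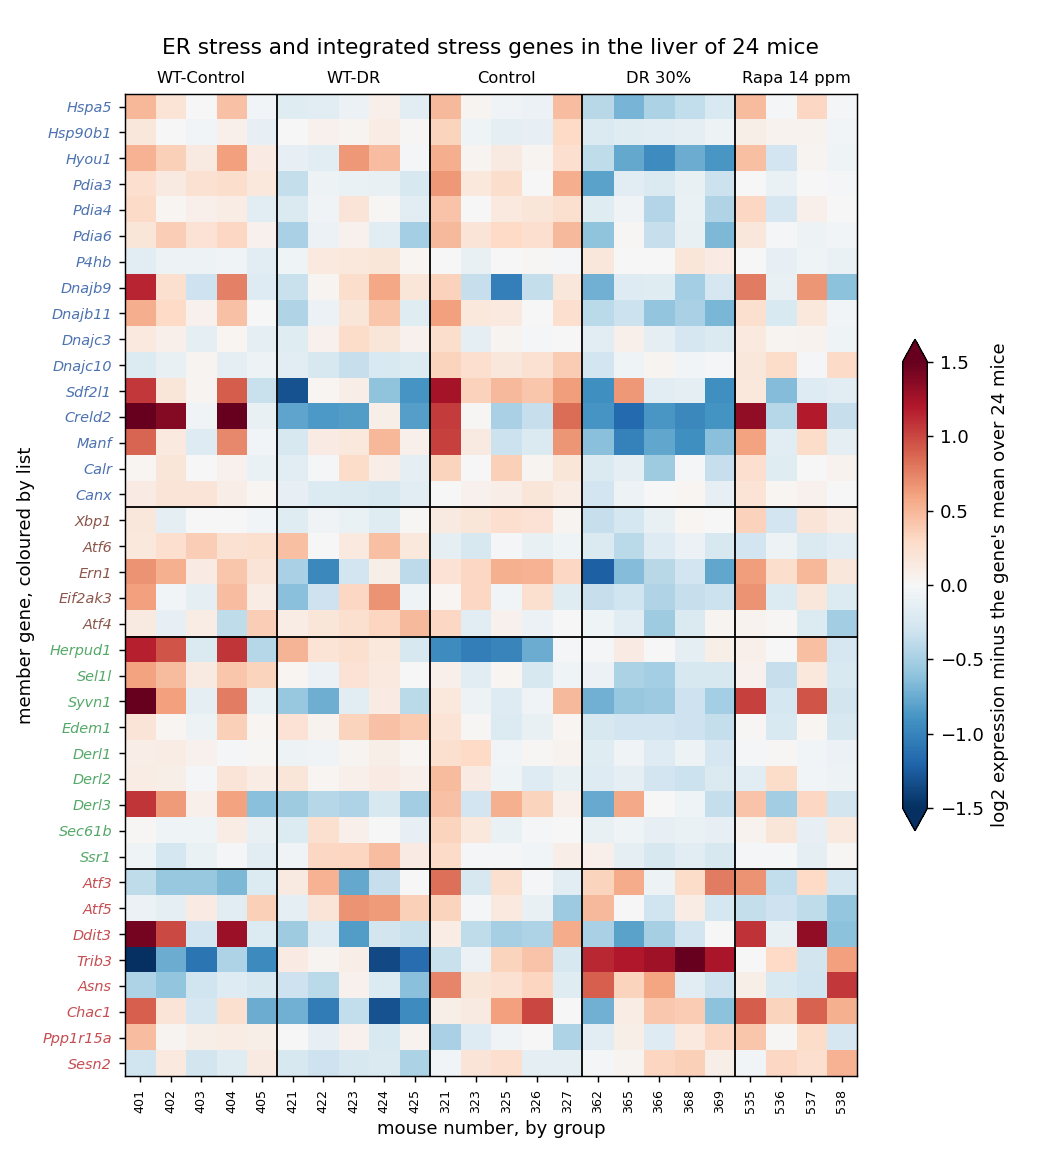
Log2 expression of the 38 members minus the mean of the gene over the 24 mice (colour, cut at 1.5 in each direction), with 1 column per mouse, by group, and 1 row per gene, in the order of the 4 lists. Hspa5, Hyou1, Dnajb11, Creld2 and Manf are blue in all 5 DR 30% columns, Trib3 is red there, and in WT-Control the columns of mice 401, 402 and 404 are red for Creld2, Herpud1, Syvn1 and Ddit3.

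Among the chaperones, 6 of 16 were called lower in DR 30% than in Control and 0 higher, 15 of 16 had a value below 0, and the median difference was -0.52. Hspa5, which encodes BiP, the main HSP70 chaperone of the ER, read 12.05, 12.08, 12.17, 12.59 and 12.62 (log2) in the 5 Control mice and 11.43, 11.66, 11.72, 11.76 and 11.91 in the DR 30% mice. No DR 30% mouse reached the lowest Control mouse, and the difference was -0.61 (SE 0.13, adjusted p = 0.00414, limma), 1.52-fold and so just past the fold threshold. Its other probe set gave -0.68, also called. Without Control mouse 321 or 327 or DR 30% mouse 365 the fold change of Hspa5 fell under the threshold, while the adjusted p was at most 0.0175. Hyou1, which encodes the large HSP70-like exchange factor of BiP, read 8.16, 8.16, 8.25, 8.37 and 8.66 in Control and 7.17, 7.25, 7.35, 7.37 and 7.74 in DR 30%. The groups were again apart, by -0.94 (SE 0.16, adjusted p = 5.9e-04, limma).

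Manf, which encodes a small ER protein that binds BiP and can be secreted, fell more. The Control mice were at 10.80, 10.91, 11.25, 11.78 and 12.14, and the DR 30% mice at 10.11, 10.20, 10.34, 10.50 and 10.50. Although the Control mice spread over more than 1 log2 unit, all 5 lay above every DR 30% mouse, with a difference of -1.05 (SE 0.23, adjusted p = 0.00507, limma). Dnajb11, an HSP40 partner of BiP, was at 9.91, 10.06, 10.08, 10.17 and 10.53 in Control and at 9.23, 9.33, 9.43, 9.51 and 9.59 in DR 30%, a difference of -0.73 (SE 0.14, adjusted p = 0.00196) without overlap.

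Pdia6, a protein disulfide isomerase, was at 10.92, 10.97, 11.01, 11.20 and 11.21 in Control and at 10.04, 10.12, 10.37, 10.61 and 10.73 in DR 30% (-0.69, SE 0.12, adjusted p = 8.5e-04, limma). Pdia3, which acts with calnexin and calreticulin on glycoproteins, was read from a dim probe set, at 4.44, 4.60, 4.70, 4.99 and 5.09 in Control and 3.64, 4.12, 4.23, 4.28 and 4.33 in DR 30% (-0.65, SE 0.11, adjusted p = 8.4e-04). Its single probe set averaged 4.44, while the values per gene, which draw on other probes, averaged 8.74 and gave -0.42, under the fold threshold, and without Control mouse 321 or DR 30% mouse 362 it also fell under it. The level of Pdia3 is therefore uncertain in the values per probe set.

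A further 3 chaperones passed the FDR in DR 30% vs Control below the fold threshold, namely Pdia4 (-0.44), Calr (-0.43) and Dnajc10 (-0.35). The other probe sets of Dnajc10 (means 8.43 and 6.92) did not follow, at -0.08 (adjusted p = 0.586, limma) and 0.10 (adjusted p = 0.608). Creld2, an ER protein with disulfide isomerase activity, differed by -1.17 (SE 0.42, adjusted p = 0.0890) and Sdf2l1, a partner of Dnajb11, by -0.92 (SE 0.31, adjusted p = 0.0656), and neither was called. Hsp90b1, the ER member of the HSP90 family, Dnajc3, Dnajb9 and the lectin chaperone Canx had values of -0.21, -0.17, -0.13 and -0.19. The second probe set of Hsp90b1 (mean 11.6) passed the FDR in DR 30% vs Control (-0.54, adjusted p = 0.00227) and in DR 30% vs WT-DR (-0.55, adjusted p = 0.00115), below the fold threshold, and was called higher in Rapa 14 ppm than in DR 30% (0.63, adjusted p = 0.00217). P4hb, which encodes the most abundant disulfide isomerase, was the 1 chaperone with a value above 0 (0.12, adjusted p = 0.204).

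**Figure D2:**
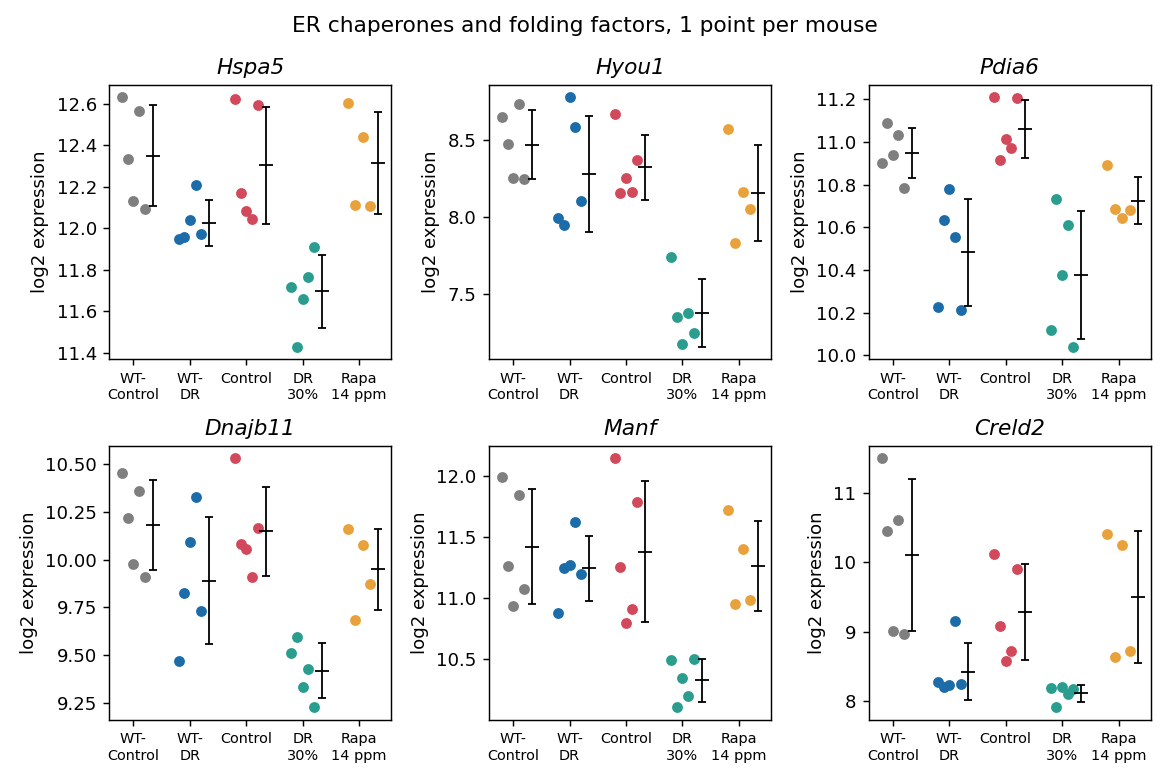
Log2 expression of 6 ER chaperones and folding factors in the 5 groups, with 1 point per mouse and the mean ± SD beside the points (n = 4 in Rapa 14 ppm and 5 elsewhere, and the axes do not start at 0). DR 30% mice lie below all Control mice for Hspa5, Hyou1, Pdia6, Dnajb11 and Manf, and the restricted mice of both genotypes lie at 7.91 to 9.16 for Creld2.

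In WT mice the chaperones called were others. Creld2 and Sdf2l1 were lower in WT-DR than in WT-Control, and 13 of 16 chaperones had a value below 0 (median -0.19). Creld2 was at 8.96, 9.01, 10.45, 10.61 and 11.50 in WT-Control and at 8.21, 8.23, 8.24, 8.27 and 9.16 in WT-DR. WT-DR mouse 424, at 9.16, lay above the 2 lowest WT-Control mice, and the mean difference was -1.68 (SE 0.42, adjusted p = 0.00613, limma), 3.21-fold. In DR 30% the 5 mice lay between 7.91 and 8.19, just below the WT-DR mice (-0.31, adjusted p = 0.709). Sdf2l1 was at 8.45, 8.82, 8.97, 9.69 and 9.85 in WT-Control and at 7.48, 7.90, 8.18, 8.81 and 8.89 in WT-DR, with overlap (-0.90, SE 0.31, adjusted p = 0.0412), and this call was lost without any 1 of the WT-Control mice 401, 402 and 404 or the WT-DR mice 421, 424 and 425, and in a fit of only these 2 groups. Canx (-0.32), Pdia3 (-0.38) and Pdia6 (-0.47) passed the FDR below the fold threshold, and P4hb was higher at 0.20 (adjusted p = 0.0138). Hyou1 and Manf differed by -0.19 (adjusted p = 0.464) and -0.18 (adjusted p = 0.661) in WT mice. A dim second probe set of Pdia6 (mean 5.29) was called lower (-1.05, adjusted p = 0.0416). In the same comparison 5 of 6 macrophage and Kupffer cell markers had a value below 0 (median -0.46), with Clec4f (-0.71) and Adgre1 (-0.93) called lower and list means of 7.81 to 8.24 in WT-Control and 7.38 to 8.06 in WT-DR. The stellate marker Col3a1 (-0.90), the endothelial marker Clec4g (-0.70) and the erythroid marker Alas2 (-1.71) were called lower too. In DR 30% vs Control, Marco (1.11) was called higher and Alas2 (-1.15) lower among these markers. The part of these cells in the results was not tested.

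Hyou1 and Manf were also lower in DR 30% than in WT-DR, where 3 members were called lower (1.22% of all probe sets) and 1 higher (2.6%). For Hyou1 the WT-DR mice were at 7.94, 7.99, 8.10, 8.58 and 8.77, all above the DR 30% mice (-0.90, SE 0.16, adjusted p = 4.9e-04, limma). For Manf they were at 10.87, 11.20, 11.25, 11.27 and 11.62, again all above them (-0.91, SE 0.23, adjusted p = 0.0100). The remaining member called lower was Edem1, and 9 members were lower with an FDR under 0.05 at any fold (4.76% of all probe sets). These counts are for the brightest probe sets, and Derl2 and Ssr1 were called lower through another one. In the same comparison all 6 markers of macrophages and Kupffer cells were called higher (their mean was 8.33 to 9.14 in DR 30% and 7.38 to 8.06 in WT-DR), as were the 2 measured neutrophil markers, S100a8 and S100a9. Their part in the differences between the restricted groups was not tested.

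Whether restriction acted differently on the 2 genotypes was tested by the interaction, the difference of DR 30% from Control less that of WT-DR from WT-Control. No member was called in it by limma through its brightest probe set, while Ern1 and Ssr1 were called lower through another one. In the brightest probe sets 14 of 38 had an unadjusted p under 0.05, as had 6235 of all probe sets. At the stricter thresholds for a call, 0.802% of all probe sets passed. Hyou1 had an interaction of -0.75 (95% interval -1.22 to -0.28, adjusted p = 0.114) and Manf of -0.87 (-1.55 to -0.19, adjusted p = 0.218). Both intervals lie below 0 before adjustment for the number of probe sets and neither gene passed after it. For Creld2 the interaction was 0.51 with an interval of -0.72 to 1.75, and for Hspa5 it was -0.28 (-0.66 to 0.10). Hence the lists of genes called in each genotype differed, but a difference between the genotypes in the response to restriction was not shown for any single chaperone. Over the 16 chaperones, 13 interaction values lay below 0 (median -0.25, against 0.00 over all probe sets).

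**Figure D3:**
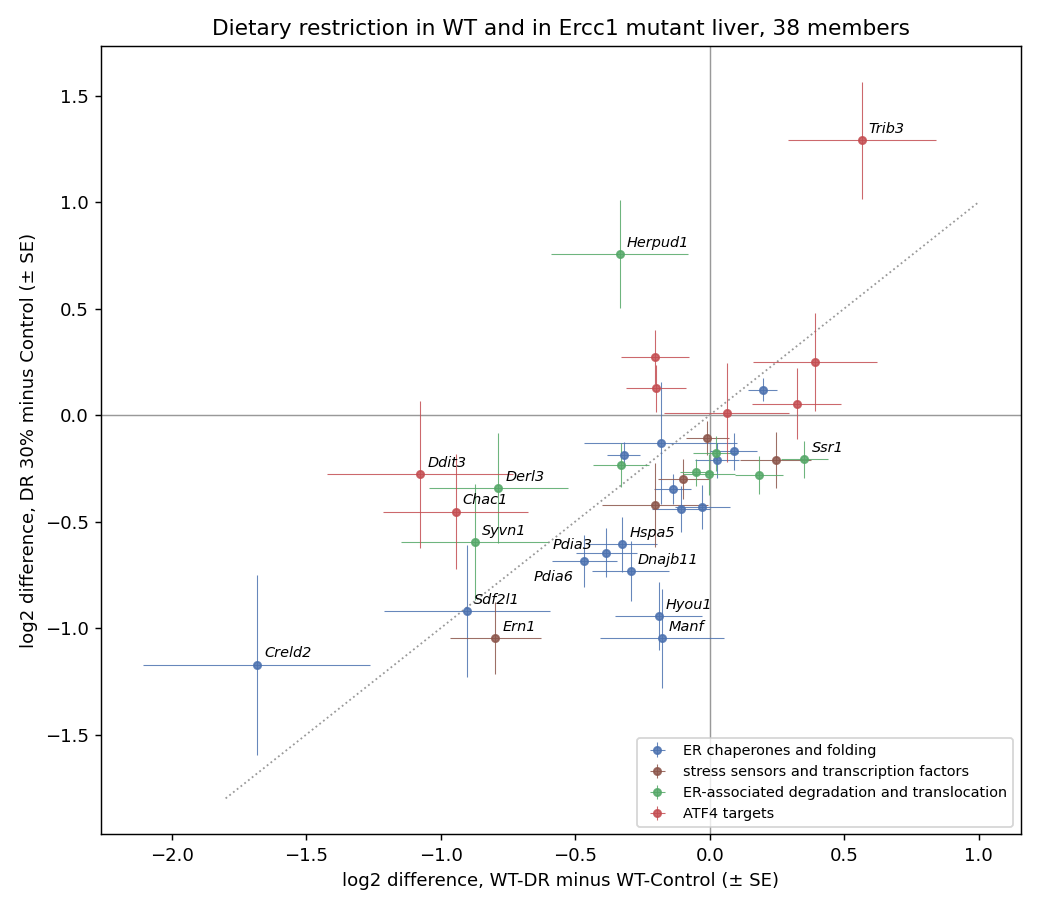
Log2 difference between restricted and ad libitum mice for each of the 38 members, in WT mice on the x axis and in Ercc1Δ/- mice on the y axis, with the SE of the model as bars, the list as colour and a dotted line of equal differences. Most members lie left of and below 0, Manf and Hyou1 lie near 0 in WT mice and near -1 in Ercc1Δ/- mice, and Creld2, Ddit3 and Chac1 lie further left than down.

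Of the sensors, Ern1, which encodes IRE1, was called lower by restriction in both genotypes. It was at 9.57, 9.66, 9.67, 9.87 and 9.88 in Control and at 8.12, 8.58, 8.71, 8.94 and 9.07 in DR 30% (-1.05, SE 0.17, adjusted p = 3.3e-04, limma). In WT-Control it was at 9.48, 9.55, 9.76, 9.89 and 10.03 and in WT-DR at 8.38, 8.86, 8.96, 9.07 and 9.44 (-0.80, SE 0.17, adjusted p = 0.00147). The groups did not overlap in either genotype. This rests on 1 of 5 probe sets. A dimmer probe set (mean 6.83) was lower in DR 30% than in Control as well (-0.73, called) but higher in WT-DR than in WT-Control (0.75, called), 3 others averaged 3.27 to 4.47 with no call, and the values per gene gave -0.34 in Ercc1Δ/- and -0.16 in WT mice, neither of them called. The direction for Ern1 in WT mice thus differed between probe sets.

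The other sensors and factors moved little. Xbp1, the target of IRE1, was among the most abundant members (12.35 ± 0.08 in Control and 12.04 ± 0.17 in DR 30%, SD). It differed by -0.30 between them (adjusted p = 0.0474, limma), below the fold threshold, and by -0.10 in WT mice. Eif2ak3, which encodes PERK, differed by -0.42 (adjusted p = 0.206) and -0.20 (adjusted p = 0.538), and Atf4 by -0.21 (adjusted p = 0.378) and 0.25 (adjusted p = 0.214). Atf6 was lower in Control than in WT-Control (-0.37, adjusted p = 0.00522) and in DR 30% than in WT-DR (-0.47, adjusted p = 3.3e-04), each under 1.5-fold. Its other probe set gave -0.54 between DR 30% and WT-DR (adjusted p = 3.2e-04), but was higher in WT-DR than in WT-Control (0.34, adjusted p = 0.0102) and differed by -0.13 (adjusted p = 0.452) between Control and WT-Control. The probe sets of Atf6 thus differed in which comparisons passed.

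Of the 9 genes of degradation and translocation, 0 were called in DR 30% vs Control by their brightest probe set, while Derl2 and Ssr1 were called lower by another one. In WT-DR vs WT-Control, 2 were called lower. Syvn1, which encodes the ubiquitin ligase HRD1 at the core of ER-associated degradation, was at 9.07, 9.12, 9.84, 9.99 and 10.71 in WT-Control and at 8.48, 8.66, 8.82, 9.06 and 9.35 in WT-DR (-0.87, SE 0.27, adjusted p = 0.0257, limma). Derl3, an inducible derlin of the channel through which proteins leave the ER, was at 5.03, 5.74, 6.27, 6.30 and 6.73 and at 5.13, 5.14, 5.19, 5.24 and 5.42 (-0.79, SE 0.26, adjusted p = 0.0332). In both genes the groups overlapped, WT-Control mice 401, 402 and 404 were the highest, and leaving out any 1 of these 3 mice ended the call. So did leaving out WT-DR mouse 421 or 422 or fitting only these 2 groups for Syvn1, and 421, 422, 423 or 425 for Derl3. In Ercc1Δ/- mice Syvn1 differed by -0.60 (adjusted p = 0.199) and Derl3 by -0.34 (adjusted p = 0.488).

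Edem1, a lectin that hands glycoproteins to degradation, was at 9.94, 9.98, 10.00, 10.01 and 10.05 in DR 30% and at 10.35, 10.51, 10.63, 10.69 and 10.73 in WT-DR (-0.59, SE 0.09, adjusted p = 8.8e-05, limma). The groups did not overlap, and the change sat at the fold threshold of 1.5 itself, so that it was not called in the values per gene, after centring of the arrays, in the mean over its probe sets, or without any 1 of 5 mice (DR 30% 368 and 369, WT-DR 423, 424 and 425). The other probe set of Edem1 (mean 10.1) gave -0.43 in this comparison (adjusted p = 6.5e-04, not called). Sel1l, the partner of HRD1, was lower with an FDR under 0.05 and under 1.5-fold in Control than in WT-Control (-0.47), in DR 30% than in WT-DR (-0.37) and in WT-DR than in WT-Control (-0.33). A dimmer probe set of Sel1l (mean 5.70) was called lower in Control than in WT-Control (-0.66, adjusted p = 0.0212) and in WT-DR than in WT-Control (-0.65, adjusted p = 0.0112). Derl1 and Derl2 differed by -0.27 (adjusted p = 0.00785) and -0.28 (adjusted p = 0.0738) between DR 30% and Control, and Sec61b, a subunit of the translocation channel, by -0.18. The other probe sets of Derl1 (means 9.39 and 9.08) gave -0.02 (adjusted p = 0.919, limma) and -0.08 (adjusted p = 0.632) there. Both passed the FDR as higher in WT-DR than in WT-Control (0.27, adjusted p = 0.00176, and 0.33, adjusted p = 0.0088), below the fold threshold. The other probe set of Derl2 (mean 8.37) was called lower in DR 30% than in Control (-0.60, adjusted p = 0.00653) and than in WT-DR (-0.64, adjusted p = 0.00241).

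Ssr1, which encodes the α subunit of the translocon-associated TRAP complex, was the 1 member whose interaction passed the FDR in the brightest probe sets. It was at 10.33, 10.43, 10.49, 10.52 and 10.57 in WT-Control and at 10.53, 10.71, 10.90, 10.91 and 11.05 in WT-DR, a rise of 0.35 (SE 0.09, adjusted p = 0.00525, limma). In Control it was at 10.55, 10.57, 10.57, 10.68 and 10.87 and in DR 30% at 10.34, 10.34, 10.42, 10.44 and 10.66, a difference of -0.21 (adjusted p = 0.147). The interaction was -0.56 (95% interval -0.81 to -0.31, adjusted p = 0.0270), below the fold threshold. The 3 other probe sets of Ssr1, with means of 8.67, 5.91 and 5.43, did not all follow. Their interactions were -0.36 (adjusted p = 0.185), -0.86 (adjusted p = 0.0415, called) and -0.58 (adjusted p = 0.212), all below 0. The dimmest of them was lower under restriction in both genotypes, by -1.01 in Ercc1Δ/- mice (adjusted p = 1.6e-04, called) and -0.44 in WT mice (adjusted p = 0.0441). The direction in WT mice thus depended on the probe set. The dimmest was also called higher in Rapa 14 ppm than in DR 30% (0.86, adjusted p = 0.00267, limma). That with a mean of 5.91 was called lower in DR 30% than in WT-DR (-1.22, adjusted p = 5.4e-06).

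Herpud1 differed between the genotypes. It encodes an ER membrane protein that organises the HRD1 complex and is among the most strongly induced genes of the unfolded protein response. The Control mice were at 10.29, 10.34, 10.38, 10.59 and 11.31 and the WT-Control mice at 10.90, 11.11, 12.27, 12.40 and 12.49. Only Control mouse 327 overlapped with WT-Control, and the difference was -1.25 (SE 0.25, adjusted p = 0.00270, limma), with -1.22 in its other probe set, also called. The DR 30% mice lay at 11.20 to 11.46 and the Rapa 14 ppm mice at 11.07 to 11.79, and both ranges overlapped with Control and with WT-Control. Their means (11.34 and 11.40) lay between those of Control (10.58) and WT-Control (11.84). They were 0.76 (adjusted p = 0.0656) and 0.82 (adjusted p = 0.286) above Control, neither of them called. Between DR 30% and WT-DR the difference was -0.16 (adjusted p = 0.754), and the interaction was 1.09 (95% interval 0.35 to 1.84, adjusted p = 0.152). Besides Herpud1, Trib3 was the other member called between Control and WT-Control by its brightest probe set. In these probe sets 1 of 38 members was called lower and 1 higher, against 0.888% and 1.63% of all probe sets. Through another probe set, Sel1l was called lower and Ern1 higher in Control than in WT-Control. Below the fold threshold, all 3 probe sets of the chaperone Dnajc10 passed the FDR with values above 0 in this comparison (0.37, 0.34 and 0.42). The mean of the macrophage and Kupffer cell markers was 8.14 to 8.80 in Control and 7.81 to 8.24 in WT-Control, and both measured neutrophil markers were called higher in Control. The mean of the hepatocyte markers was 13.15 to 13.21 in Control and 13.28 to 13.43 in WT-Control, with Tat called lower in Control (-0.91). The part of these cell types in these differences was not tested.

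**Figure D4:**
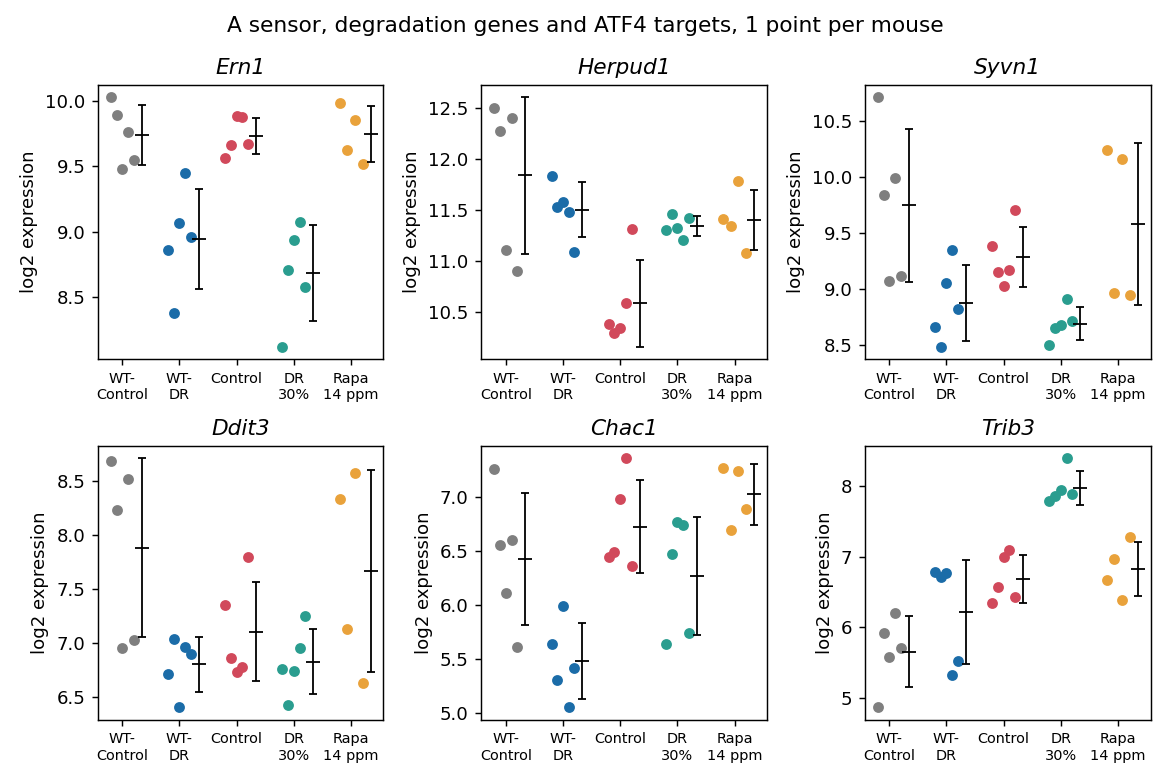
Log2 expression of Ern1, of the degradation genes Herpud1 and Syvn1 and of the ATF4 targets Ddit3, Chac1 and Trib3 in the 5 groups, with 1 point per mouse and the mean ± SD beside the points (n = 4 in Rapa 14 ppm and 5 elsewhere, and the axes do not start at 0). Trib3 is highest in DR 30% (7.79 to 8.40) and lowest in WT-Control (4.87 to 6.20), and Ddit3 and Syvn1 are spread most in WT-Control and Rapa 14 ppm.

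The 8 ATF4 targets did not follow the chaperones in Ercc1Δ/- mice. In DR 30% vs Control 1 was called higher and 0 lower, 6 had a value above 0 and the median was 0.09. Trib3, which encodes a pseudokinase that binds AKT and ATF4, was at 6.34, 6.43, 6.57, 7.00 and 7.10 in Control and at 7.79, 7.86, 7.89, 7.94 and 8.40 in DR 30%. The groups were apart by 1.29 (SE 0.28, adjusted p = 0.00397, limma), 2.44-fold. In WT-Control it was lower still, at 4.87, 5.58, 5.71, 5.92 and 6.20, so that Control exceeded WT-Control by 1.03 (SE 0.28, adjusted p = 0.0215) without overlap, a call that was lost without Control mouse 325 or 326 or WT-Control mouse 401. The WT-DR mice split into values of 5.32 and 5.52 and of 6.71, 6.77 and 6.79, and differed from WT-Control by 0.56 (adjusted p = 0.165). DR 30% exceeded WT-DR by 1.76 (SE 0.28, adjusted p = 1.2e-04), and the interaction was 0.73 (95% interval -0.08 to 1.53, adjusted p = 0.423). The order of the group means was thus WT-Control (5.66 ± 0.50), WT-DR (6.22 ± 0.74), Control (6.69 ± 0.34), Rapa 14 ppm (6.83 ± 0.38) and DR 30% (7.98 ± 0.24), where Control and Rapa 14 ppm did not differ beyond their spread (0.14, adjusted p = 0.923).

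In WT mice 2 ATF4 targets were called lower under restriction. Ddit3, which encodes CHOP, the proapoptotic factor of prolonged ER stress, was at 6.95, 7.03, 8.23, 8.52 and 8.68 in WT-Control and at 6.41, 6.71, 6.90, 6.97 and 7.04 in WT-DR (-1.08, SE 0.35, adjusted p = 0.0297, limma). The 2 lowest WT-Control mice, 403 and 405, lay at or below the top of WT-DR. Chac1, whose enzyme degrades glutathione and which is induced through ATF4 and CHOP, was at 5.61, 6.11, 6.55, 6.60 and 7.25 and at 5.05, 5.31, 5.42, 5.64 and 5.99 (-0.94, SE 0.27, adjusted p = 0.0152), with a small overlap. The call of Ddit3 was lost without any 1 of the WT-Control mice 401, 402 and 404 or the WT-DR mouse 423, and that of Chac1 without WT-Control mouse 401. In Ercc1Δ/- mice Ddit3 differed by -0.28 (adjusted p = 0.706) and Chac1 by -0.45 (adjusted p = 0.352).

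The remaining 5 ATF4 targets were not called in any comparison. Asns, the asparagine synthetase induced by amino acid shortage, was dim (4.36 to 4.99 in the group means) and differed by 0.01 and 0.06 in the 2 restriction comparisons. Atf3 (4.26 to 5.12) had values of 0.25 and 0.39, and Atf5, a liver-rich factor that ATF4 controls, of 0.05 and 0.32. Ppp1r15a, which encodes GADD34, the subunit that directs phosphatase to eIF2α, had values of 0.27 and -0.20. Sesn2, a leucine sensor that restrains mTORC1, was higher in DR 30% than in WT-DR at an FDR under 0.05 (0.45, adjusted p = 0.00901, limma) below the fold threshold. Asns and Atf3 differed more between Control and WT-Control, though neither was called. Asns was at 4.54 to 5.45 in Control and 4.13 to 4.53 in WT-Control, without overlap. Atf3 was at 4.50 to 5.57 and 4.07 to 4.54, with overlap. In this comparison 5 of the 8 ATF4 targets had an unadjusted p under 0.05, as had 9302 of all probe sets. The median over the 8 was 0.21, with 5 values above 0 and 3 below, and only Trib3 passed the FDR.

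Rapamycin changed no member past the thresholds. In Rapa 14 ppm vs Control 0 of 38 members passed the FDR by limma at any fold, and 0.031% of all probe sets were called. An unadjusted p under 0.05 was found for 6 members and for 4360 of all probe sets. The median over the members was -0.05, with 13 values above 0 and 25 below. The smallest p among them was that of Herpud1 (0.82, 95% interval 0.26 to 1.38, adjusted p = 0.286). The largest difference in size was that of Sdf2l1, at 9.13, 9.20, 9.27, 9.41 and 10.04 in Control and 8.14, 8.59, 8.63 and 8.95 in Rapa 14 ppm. These groups did not overlap, and the difference was -0.83 (95% interval -1.51 to -0.15, adjusted p = 0.394). Pdia6 was also without overlap, at 10.64, 10.68, 10.69 and 10.89 in Rapa 14 ppm (-0.34, adjusted p = 0.378). For Hspa5 the difference was 0.01 (interval -0.27 to 0.30), for Hyou1 -0.17 (-0.52 to 0.19), for Manf -0.12 (-0.62 to 0.39), for Ern1 0.01 (-0.35 to 0.38) and for Trib3 0.14 (-0.46 to 0.74). The intervals of Manf and Trib3 still hold differences of more than 1.5-fold in either the lower or the higher direction.

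Set directly against DR 30%, rapamycin-fed mice had 4 members higher and 1 lower, where 0.704% of all probe sets were called higher and 0.902% lower. This comparison shares the DR 30% mice with DR 30% vs Control. Hspa5 in Rapa 14 ppm was at 12.11, 12.11, 12.44 and 12.60 and exceeded DR 30% by 0.62 (SE 0.14, adjusted p = 0.00953, limma). Hyou1 was at 7.83, 8.05, 8.16 and 8.57 (0.78, SE 0.17, adjusted p = 0.00839) and Manf at 10.95, 10.98, 11.40 and 11.72 (0.93, SE 0.25, adjusted p = 0.0269). Ern1 was at 9.52, 9.62, 9.86 and 9.99 (1.06, SE 0.18, adjusted p = 0.00114), and its values per gene gave 0.33 with no call. Trib3 was lower, at 6.39, 6.67, 6.97 and 7.28 (-1.15, SE 0.29, adjusted p = 0.0222). In all 5 genes no Rapa 14 ppm mouse overlapped with DR 30%. Outside these counts, Hsp90b1 and Ssr1 were called higher through a probe set other than their brightest. Leaving out Rapa 14 ppm mouse 535 reduced the calls from 5 to 1, leaving out mouse 537 reduced them to 2 and leaving out DR 30% mouse 365 or 368 to 3, while leaving out Rapa 14 ppm mouse 536 raised them to 8.

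The mean over the 16 chaperones summarises the order of the groups. On the log2 scale it was 10.39 ± 0.24 (SD) in WT-Control, 10.36 ± 0.23 in Control, 10.25 ± 0.22 in Rapa 14 ppm, 10.08 ± 0.17 in WT-DR and 9.82 ± 0.08 in DR 30%. The DR 30% mice (9.74 to 9.92) lay below all mice of the 3 ad libitum groups (10.04 to 10.69), and the WT-DR mice (9.85 to 10.26) overlapped with both. The mean over the 8 ATF4 targets was 6.74 ± 0.07 in DR 30%, 6.72 ± 0.16 in Rapa 14 ppm, 6.58 ± 0.14 in Control, 6.41 ± 0.13 in WT-Control and 6.27 ± 0.12 in WT-DR. DR 30% and Rapa 14 ppm did not differ beyond their spread in this mean. Without Trib3, left out after its values were seen, the mean over the other 7 was 6.57 ± 0.04 in DR 30%, 6.57 ± 0.14 in Control and 6.70 ± 0.22 in Rapa 14 ppm, so that the place of DR 30% above Control rested on Trib3. These means contain the genes described singly above and carry no test.

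Mice of the same ad libitum group differed widely in some members. Creld2 had a pooled SD of 0.93 (log2) within the 3 ad libitum groups (14 mice) and 0.30 within the 2 restricted groups (10 mice). For Ddit3 the SDs were 0.75 and 0.28, for Dnajb9 0.60 and 0.29, for Syvn1 0.58 and 0.26, for Herpud1 0.55 and 0.20 and for Manf 0.49 and 0.22. The mice with the highest values were partly the same. In Control, mouse 321 was highest for Creld2 (10.12), Manf (12.14) and Hspa5 (12.62), and mouse 327 for Ddit3 (7.80), Syvn1 (9.70) and Herpud1 (11.31). Rapa 14 ppm mice 535 and 537 held the 2 highest values of their group for Creld2 (10.40 and 10.25), Syvn1 (10.24 and 10.16) and Ddit3 (8.33 and 8.57). WT-Control mouse 401 was highest for Creld2, Manf, Hspa5, Syvn1, Herpud1 and Ddit3. Besides Creld2, 8 members had their highest value in the same mouse as Creld2 in all 3 ad libitum groups, namely Hspa5, Hsp90b1, Pdia4, Dnajb9, Dnajb11, Dnajc3, Sdf2l1 and Manf, all of them chaperones. Creld2 was singled out for this after its values were seen, and genes of 1 mouse share its array.

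This was not a feature of all members. Over the 38, 21 had the larger SD within the ad libitum groups and 17 within the restricted groups. Neither the spread nor the shared highest mouse was counted over all probe sets, so these counts cannot be set against the whole array. Sdf2l1 (0.46 ad libitum, 0.63 restricted), Trib3 (0.42 and 0.55), Ern1 (0.20 and 0.38) and Pdia6 (0.12 and 0.28) spread more under restriction. Restricted mice got their food at 1 set time of day and the others fed freely, and no record of the last meal before collection was found in the sources used here. The part of feeding in these spreads was not tested.

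**Figure D5:**
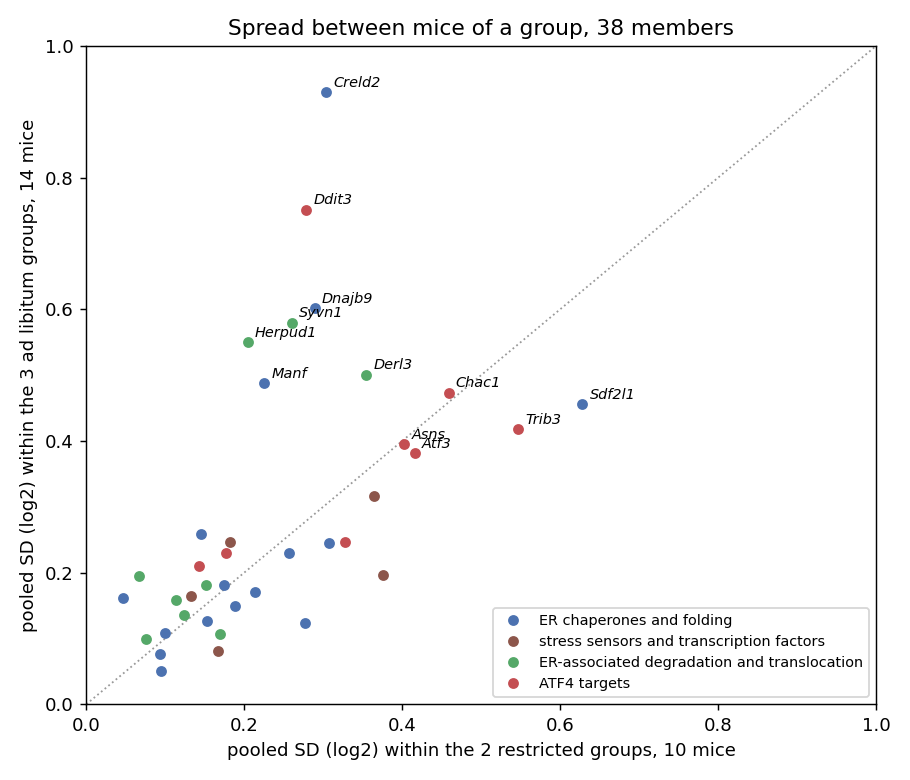
Pooled SD (log2) between mice of the same group for each of the 38 members, within the 2 restricted groups on the x axis (10 mice) and within the 3 ad libitum groups on the y axis (14 mice), with the list as colour and a dotted line of equal SD. Creld2, Ddit3, Dnajb9, Syvn1, Herpud1 and Manf lie well above the line, and Sdf2l1 and Trib3 below it.

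The differences of members with and without these promoter elements were set side by side, with no test. Of the 11 members outside the ATF4 targets with an ERSE or ERSE-II, 10 had a value below 0 in DR 30% vs Control (median -0.43) and 3 were called lower, namely Hspa5, Pdia6 and Dnajb11. Of the 15 with a window and neither element, 14 had a value below 0 (median -0.28) and 2 were called lower, namely Pdia3 and Ern1. In WT-DR vs WT-Control the counts below 0 were 9 of 11 (median -0.33) and 10 of 15 (median -0.11), with 3 called lower with an element (Creld2, Syvn1 and Derl3) and 2 without (Sdf2l1 and Ern1). Of these 11 members with an ERSE or ERSE-II, Herpud1, which also holds a CARE, was the 1 with a value above 0 in DR 30% vs Control. Hyou1 and Manf, which have no window in the table, are not in these counts.

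Other genes of the same pathways were read in the same way. Of 31 measured genes of ER folding, translocation and transport outside the members, 2 were called lower in DR 30% vs Control and 0 higher, and 29 had a value below 0 (median -0.19). Sec23b, a coat subunit of the vesicles that leave the ER, was at 9.70 ± 0.33 (SD, n = 5) in Control and 8.95 ± 0.12 (n = 5) in DR 30% (-0.75, adjusted p = 0.00113, limma), and Hspa13, an HSP70-like ER protein, at 9.86 ± 0.40 and 9.08 ± 0.13 (-0.78, adjusted p = 0.00144). In WT-DR vs WT-Control 0 of the 31 were called (1 lower and 5 higher at any fold), with 21 values above 0 and a median of 0.04. In DR 30% vs WT-DR 27 of 31 values lay below 0 (median -0.27), 16 passed the FDR and 2 were called, namely Hspa13 (-0.76) and Ero1b (-0.73), the oxidase that recharges disulfide isomerases. Their interaction values were below 0 for 28 of 31 (median -0.30), with 4 past the FDR and 0 called. Hspa13 and Sec23b were also called higher in Rapa 14 ppm than in DR 30% (0.70 and 0.71).

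Of 20 measured further ATF4 targets, 2 were called higher in DR 30% vs Control. Ddit4, which encodes the mTORC1 inhibitor REDD1, was at 6.60 ± 0.68 (SD, n = 5) in Control and 8.34 ± 1.15 (n = 5) in DR 30% (1.74, adjusted p = 0.00819, limma) and at 6.67 ± 0.47 (n = 4) in Rapa 14 ppm. Vldlr, a lipoprotein receptor, was called in 4 comparisons, at 3.40 ± 0.11 in Control, 4.40 ± 0.54 in DR 30%, 5.06 ± 0.62 in WT-Control and 6.90 ± 0.52 in WT-DR. It was dim in Ercc1Δ/- mice, with the Control mean below the median probe set (4.19) and that of DR 30% near it. Fgf21, a liver hormone of fasting and amino acid shortage, was lower in WT-DR (4.39 ± 0.21) than in WT-Control (5.87 ± 0.55), by -1.48 (adjusted p = 0.00529). Between Control and WT-Control, Cebpb was lower (-0.66, adjusted p = 0.0148) and Nupr1 higher (0.59, adjusted p = 0.00745). No gene was called in any of the 7 comparisons among 9 measured cytosolic tRNA synthetases, which ATF4 also induces, 9 further genes of ER-associated degradation, or 8 genes of eIF2α kinases, phosphatases and eIF2B. The synthetases had 9 of 9 values below 0 in DR 30% vs Control (median -0.20), with 3 past the FDR.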

How the data were processed

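RNA from 24 mouse livers was measured on Affymetrix arrays in plate format (HT MG-430 PM). RNA with an integrity number below 8 was left out. The authors deposited log2 expression values, made by robust multi-array averaging (RMA, version not given in the sources used here) in the arrayanalysis.org pipeline. Which arrays were normalized together was not given either. Each array has 2 sets of deposited log2 values, and the set per probe set was used, with the set per gene as an alternative. RMA values understate folds of dim probes.

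Of the probe sets, 28898 carried 1 gene symbol, 551 carried several and 15692 were not named here. One model with 5 group means was fitted to all probe sets with limma 3.58.1 in R 4.3.3, with Benjamini-Hochberg adjustment over all of them. Calls needed an FDR under 0.05 and a fold of at least 1.5. The script was tested on simulated data. Members and lists were chosen with earlier results of these data known. All 38 members are named or counted, called members are given per mouse, and of other lists at most 4 genes per comparison are named, by smallest adjusted p among those called. Alternatives tried were dim probe sets left out, fits of the compared groups alone, values per gene, 2 other normalizations, another variance model, other fold thresholds, the mean over probe sets and leaving out each mouse.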

Additional observations from a re-analysis of the deposited data

Results flagged for a closer look

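In 5 of 190 sets of values, 1 for each member and group, a single mouse stood apart from the rest of its group, where chance gives about 1 in 20, or 9.5. Pdia6 was at 10.89 in mouse 535 of Rapa 14 ppm, against 10.64 to 10.69 in the other 3 mice. P4hb was at 12.60 in mouse 323 of Control, below the others at 12.69 to 12.72. Creld2 was at 9.16 in mouse 424 of WT-DR, against 8.21 to 8.27. Trib3 was at 8.40 in mouse 368 of DR 30%, against 7.79 to 7.94. Ppp1r15a was at 7.01 in mouse 401 of WT-Control, against 6.58 to 6.66. The interaction of restriction and genotype for Ssr1 was -0.56 in its brightest probe set (adjusted p = 0.0270, limma). It passed the FDR below the fold threshold, and not all of the other probe sets of Ssr1 passed the FDR.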

How the results depend on the processing

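No call of a member in a comparison changed direction in any alternative, and 10 of 26 such calls were kept in all alternatives run for single genes, namely Hyou1, Pdia6, Dnajb11, Manf and Trib3 in DR 30% vs Control, Creld2 in WT-DR vs WT-Control, Herpud1 in Control vs WT-Control, and Hyou1, Manf and Trib3 in DR 30% vs WT-DR. Counts moved with the fold threshold and with single mice. Without the threshold, 14 members passed in DR 30% vs Control, 13 in WT-DR vs WT-Control, 5 in Control vs WT-Control, 11 in DR 30% vs WT-DR, 7 in Rapa 14 ppm vs DR 30% and 1 in the interaction. At a fold of at least 2, the counts were 3 in DR 30% vs Control, 2 in WT-DR vs WT-Control, 1 in DR 30% vs WT-DR and 2 in Rapa 14 ppm vs DR 30%. With the mean over the probe sets of a gene, 1 member was called in the interaction. Leaving out each mouse in turn gave 6 to 9 members in DR 30% vs Control, 2 to 7 in WT-DR vs WT-Control, 1 to 2 in Control vs WT-Control, 3 to 5 in DR 30% vs WT-DR, 1 to 8 in Rapa 14 ppm vs DR 30% and 0 to 1 in the interaction. Rapa 14 ppm vs Control gave 0 in every alternative. Ern1 lost its calls in the values per gene and in the mean over its probe sets, where WT-DR vs WT-Control was -0.16 and -0.07. The causes were not tested. No paired analysis was possible because the animal numbers differ between all groups. The number of arrays limits the precision, and a dim probe set such as that of Pdia3 lies close to the array median.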
